A study of Drosophila melanogaster with 6 samples.

Results

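Ecdysteroids are the steroid hormones that time the molts and metamorphosis of insects. In Drosophila larvae the prothoracic gland, a part of the ring gland, takes up dietary sterol and converts it to ecdysone through a chain of enzymes, most of them cytochrome P450 proteins encoded by the Halloween genes. The gland is driven by prothoracicotropic hormone from the brain, and its product is activated in peripheral tissues to 20-hydroxyecdysone and cleared there by further oxidation. The 9 genes described here cover this route: nvd, sro and spok for the early steps, phm, dib and sad for the late hydroxylations in the gland, shd for the activation outside it, Cyp18a1 for clearance, and Ptth for the hormone that drives the gland. They were taken by name as the genes of this route, with no threshold on their values, and each matched 1 of the 16662 rows of the expression table. A separate row Phm belongs to another gene and was not used.

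Whole instar 3 larvae of Drosophila melanogaster were measured by RNA-seq in 3 genotypes, the yw control strain and the mutants HP1b16 and HP1b86, each with 2 of the 6 libraries. HP1b encodes a chromatin protein of the Heterochromatin Protein 1 family and lies on the X chromosome. Both mutant alleles are deletions within HP1b from imprecise excision of a P element, each carried in 1 homozygous line after backcrossing to yw. The HP1b16 stock still makes an aberrant RNA from the locus.

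HP1b itself checked the labels, at 22.8 and 24.2 FPKM in yw, 2.55 and 3.13 in HP1b16, and 0.121 and 0.0403 in HP1b86. FPKM are fragments scaled to the length of the transcript and the size of the library, so levels of different genes can be set side by side. The summed FPKM of a library ran from 654430 in a yw library to 1132180 in HP1b86 replicate 1. The HP1b86 libraries lay further apart than the others, with 23.6% of tested rows differing by more than 2-fold between them, against 1.82% in yw and 1.85% in HP1b16. Genotypes were compared on log2(FPKM + 1) with limma, a linear model with moderated variances, and p-values were adjusted by the Benjamini-Hochberg method over the 10986 rows that averaged 1 FPKM or more. The threshold was an adjusted p of 0.05. Log2 changes on this scale understate the changes of low genes. The yw libraries are shared by both comparisons, so the differences of HP1b16 and HP1b86 from yw are not independent of each other.

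The levels of the 9 genes spanned the range from abundant to barely detected. Averaged over the 6 libraries, sro was at 49.6 FPKM, shd at 30.1, spok at 10.0, phm at 9.53, sad at 8.26, Cyp18a1 at 2.48, nvd at 1.76, Ptth at 1.08 and dib at 0.521. No gene was at 0 in any library. In this order the steps from shd down to spok, from spok to phm and from sad to Cyp18a1 held in all 6 libraries, but spok and phm were nearly equal in each. The steps from sro to shd, from phm to sad, from nvd to Ptth and from Ptth to dib each held in 5 of 6 libraries, and that from Cyp18a1 to nvd in 4 of 6. In whole larvae a lower level can come from fewer gland cells or from less RNA in each, which cannot be told apart.

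**Figure D1:**
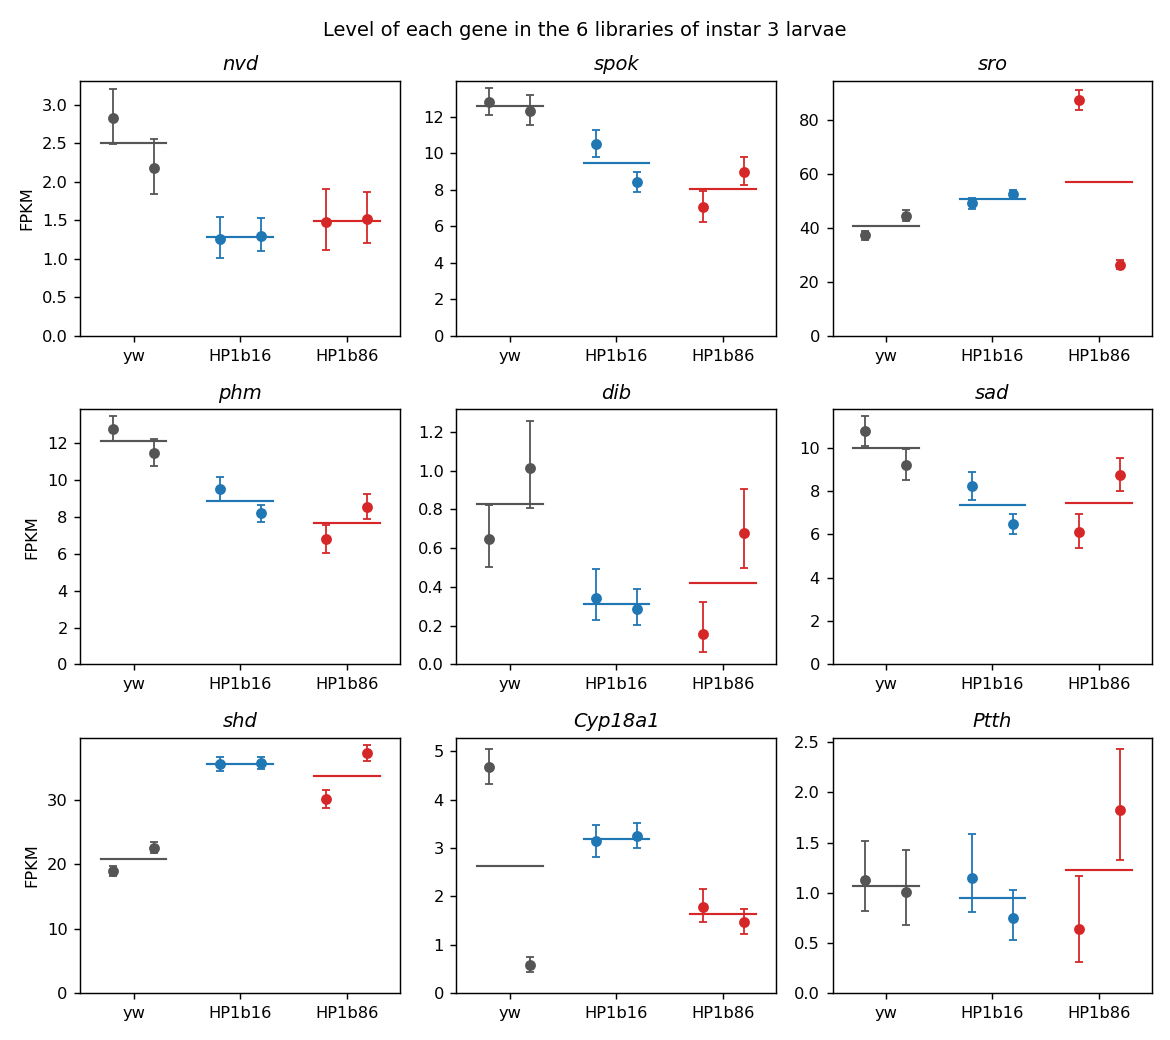
Level of each of the 9 genes in FPKM (vertical axes, each starting at 0) in the 2 libraries of yw, HP1b16 and HP1b86. Points are libraries, bars are 95% Poisson intervals for counting error from the implied fragment numbers, and horizontal lines are means of 2 libraries; phm, sad, spok and nvd lie below both yw libraries in all 4 mutant libraries and shd lies above them.

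The early reactions of the pathway are known as the black box, since their intermediates are unstable. Neverland, the product of nvd, is a Rieske oxygenase that dehydrogenates cholesterol, the first step of the route. The nvd level was 2.83 and 2.18 FPKM in the yw libraries, 1.26 and 1.30 in HP1b16, and 1.47 and 1.51 in HP1b86. All 4 mutant libraries lay below both yw libraries, and the means were 51.1% of yw in HP1b16 and 59.7% in HP1b86. The log2 change was -0.61 in HP1b16 (SE 0.17, limma adjusted p = 0.138) and -0.48 in HP1b86 (SE 0.17, limma adjusted p = 0.153), and neither passed the threshold. The values rested on an implied 57 to 250 fragments per library, so that the 95% counting intervals of yw replicate 2 (1.85 to 2.55 FPKM) and HP1b86 replicate 1 (1.12 to 1.91) overlapped.

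Spookier, the product of spok, is a P450 of the same black box that acts in larvae. It was at 12.8 and 12.3 FPKM in yw, 10.5 and 8.41 in HP1b16, and 7.04 and 8.99 in HP1b86. Again each mutant library was below both yw libraries, with means at 75.2% of yw in HP1b16 and 63.7% in HP1b86. On the log2 scale the change of spok was -0.38 in HP1b16 (SE 0.18, limma adjusted p = 0.280) and -0.60 in HP1b86 (SE 0.18, limma adjusted p = 0.110). Its paralog spo, which makes the embryonic enzyme, had a mean of 0.00767 FPKM and was not tested.

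Shroud, a short-chain dehydrogenase encoded by sro, also belongs to the black box, but its RNA did not follow that of nvd and spok. It was the most abundant of the 9, at 37.2 and 44.5 FPKM in yw, 49.2 and 52.6 in HP1b16, and 87.4 and 26.5 in HP1b86. The HP1b86 libraries held both the highest and the lowest value of all 6 and differed 3.30-fold, far beyond their counting intervals (83.7 to 91.2 and 24.8 to 28.2 FPKM). Both HP1b16 libraries were above both yw libraries in the deposited FPKM. They lay between the yw libraries under quantile normalization and when each library was scaled to the same FPKM sum. For sro the log2 change was 0.31 in HP1b16 (SE 0.57, limma adjusted p = 0.726) and 0.24 in HP1b86 (SE 0.57, limma adjusted p = 0.894). Its sign in HP1b86 turned to -0.35 when each library was scaled to the same FPKM sum. In the BDGP6 reference annotation 109 of the 1154 exon bases of sro are shared with Rnb on the opposite strand, whose row stood at 4.87 to 6.28 FPKM, and since no source says that counting used strand, reads from the shared bases cannot be told apart.

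The 3 rows most like sro over the 6 libraries, by Pearson correlation of log2(FPKM + 1), were CG43083 (r = 0.994), pix (r = 0.991) and CG13607 (r = 0.988). All 3 shared with sro the highest value in HP1b86 replicate 1 and the lowest in HP1b86 replicate 2. For pix these were 119 and 97.7 FPKM, a far narrower span than that of sro. With 6 libraries and 10986 rows searched, high correlations of this kind are a description of these libraries.

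The late reactions in the gland are carried out by 3 P450 hydroxylases that act one after another, Phantom at carbon 25, Disembodied at carbon 22 and Shadow at carbon 2. The phm level was 12.7 and 11.5 FPKM in yw, 9.50 and 8.18 in HP1b16, and 6.77 and 8.54 in HP1b86. The genotypes did not overlap with yw, and the means were 73.0% of yw in HP1b16 and 63.2% in HP1b86. Its log2 change was -0.42 in HP1b16 (SE 0.16, limma adjusted p = 0.222) and -0.60 in HP1b86 (SE 0.16, limma adjusted p = 0.0970).

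Shadow RNA, from sad, was at 10.8 and 9.20 FPKM in yw, 8.22 and 6.47 in HP1b16, and 6.13 and 8.75 in HP1b86. The mutant libraries again all fell below the yw libraries, though the nearest pair, yw replicate 2 and HP1b86 replicate 2, was close. Its mean was 73.5% of yw in HP1b16 and 74.6% in HP1b86. The log2 changes of -0.40 (SE 0.22, limma adjusted p = 0.360) and -0.39 (SE 0.22, limma adjusted p = 0.313) did not pass the test.

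The dib transcript was the rarest, at 0.648 and 1.01 FPKM in yw, 0.345 and 0.284 in HP1b16, and 0.156 and 0.680 in HP1b86. In dib, 3 mutant libraries were below both yw libraries and HP1b86 replicate 2 lay between them. The mean of dib was under the limit of 1 FPKM, so it was the only one of the 9 left out of the tested rows. In a fit of every row above 0 its log2 change was -0.47 in HP1b16 (SE 0.21, limma adjusted p = 0.319) and -0.39 in HP1b86 (SE 0.21, limma adjusted p = 0.349). With 0.1 FPKM added in place of 1 these values were -1.14 and -1.03. The 4.37-fold gap between the HP1b86 libraries stood on an implied 7 and 46 fragments, with counting intervals of 0.0626 to 0.321 and 0.498 to 0.907 FPKM. In the BDGP6 annotation 400 of its 1975 exon bases are shared with wit on the opposite strand, and the wit row, at 8.73 to 10.9 FPKM, was more than 8 times as high as dib in every library.

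Shade, the product of shd, hydroxylates ecdysone at carbon 20 and so makes the active hormone, in fat body, gut and other tissues outside the ring gland. Its RNA was higher in the mutants, at 19.0 and 22.6 FPKM in yw, 35.6 and 35.7 in HP1b16, and 30.1 and 37.3 in HP1b86. Every mutant library was above both yw libraries, and the means were 172% of yw in HP1b16 and 162% in HP1b86. The log2 change was 0.76 in HP1b16 (SE 0.16, 95% interval 0.33 to 1.18, limma adjusted p = 0.0946) and 0.67 in HP1b86 (SE 0.16, 95% interval 0.25 to 1.09, limma adjusted p = 0.0810). For the mean of both mutants it was 0.71 (SE 0.14, limma adjusted p = 0.0548), the closest to the threshold among the 9 genes.

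Whether shd passed changed with the HP1b86 libraries in the fit, which share 1 estimate of the spread with the others. With yw and HP1b16 fitted on their own, shd passed in HP1b16 at the same log2 change (SE 0.13, limma adjusted p = 0.0274), but there 21.7% of all rows passed. For the mean of both mutants it passed without HP1b86 replicate 1 (log2 change 0.79, limma adjusted p = 0.0256), where 16.1% of all rows passed, and without HP1b86 replicate 2 (log2 change 0.64, limma adjusted p = 0.0179), where 46% did. When each library was scaled to the same FPKM sum, shd was at 28.8 and 34.5 in yw, 46.3 and 45.9 in HP1b16, and 26.6 and 42.7 in HP1b86. On that scale HP1b86 overlapped with yw, with a log2 change of 0.09 (SE 0.26).

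**Figure D2:**
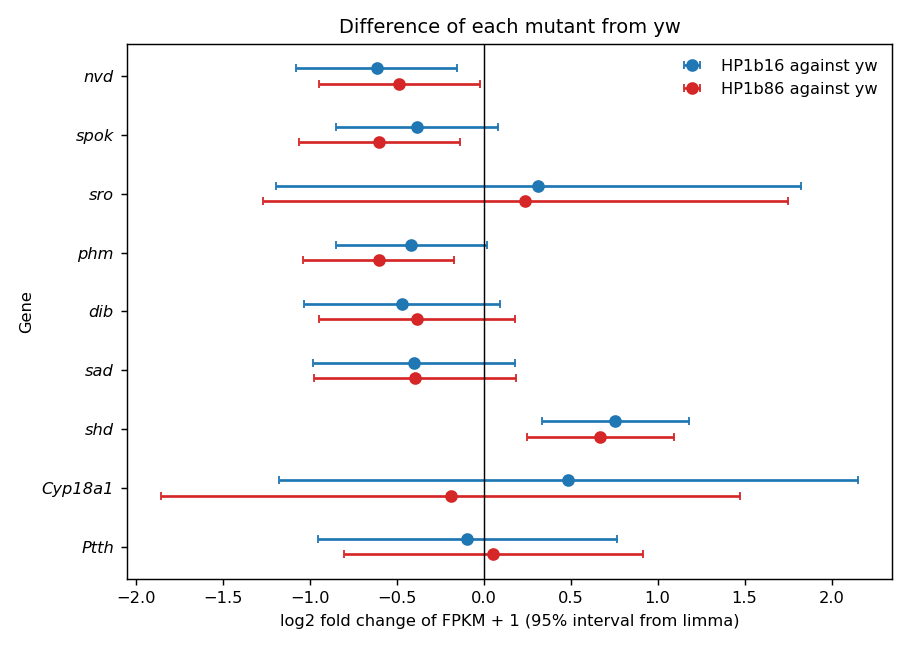
Log2 fold change of FPKM + 1 (horizontal axis) for HP1b16 and HP1b86 against yw in each of the 9 genes, ordered by role, with 95% intervals from limma. The intervals of shd lie above 0 in both mutants and those of nvd below 0, while sro and Cyp18a1 have intervals reaching past 1 on both sides of 0; dib comes from the fit of every row above 0.

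Cyp18a1 is a P450 that inactivates ecdysteroids by oxidation at carbon 26, and in the reference annotation it is the neighbour of phm on the X chromosome. It was at 4.67 and 0.575 FPKM in yw, 3.14 and 3.25 in HP1b16, and 1.79 and 1.46 in HP1b86. The yw libraries held the highest and the lowest value and differed 8.13-fold, while the libraries of each mutant lay close together between them. Counting error does not cover that gap, as the intervals were 4.32 to 5.05 and 0.442 to 0.736 FPKM. The log2 change was 0.49 in HP1b16 (SE 0.63, limma adjusted p = 0.640) and -0.19 in HP1b86 (SE 0.63, limma adjusted p = 0.925), and which yw library was kept set the sign of both. The rows most like it were CG1124 (r = 0.958), CG6218 (r = 0.951) and CG9548 (r = 0.936). CG1124 shared the gap between the yw libraries, at 10.2 and 2.63 FPKM.

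Ptth encodes the brain neuropeptide that binds the receptor Torso on the gland and starts hormone synthesis. It was at 1.13 and 1.00 FPKM in yw, 1.15 and 0.745 in HP1b16, and 0.635 and 1.82 in HP1b86. The genotypes overlapped, and the HP1b86 libraries were the lowest and the highest. The log2 change was -0.09 in HP1b16 (95% interval -0.95 to 0.77, limma adjusted p = 0.857) and 0.06 in HP1b86 (95% interval -0.81 to 0.92, limma adjusted p = 0.962). With an implied 10 to 45 fragments per library, a log2 change of the size of that of shd still lies within these intervals. The receptor gene tor, at a mean of 0.313 FPKM, was below the limit for testing.

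Across the set, 8 of the 9 genes were tested and 0 of 8 passed the threshold of limma in any comparison. Of all tested rows, 0.0182% passed in HP1b16 against yw, 4.03% in HP1b86 against yw, 6.38% in the averaged mutants against yw, and 0.0091% in HP1b16 against HP1b86. At an unadjusted p under 0.05 the counts were 2 of 8, 4 of 8, 4 of 8 and 0 of 8, beside 23.7%, 30.0%, 31.1% and 7.90% of all tested rows. The median log2 change of the 8 genes for the mean of both mutants was -0.21, beside -0.08 over all tested rows.

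By position alone, phm, sad, spok and nvd were below both yw libraries in both libraries of HP1b16 and of HP1b86. That was 4 of 8 tested genes, where 46% of all rows did so in HP1b16, 26.1% in HP1b86 and 19.8% in all 4 mutant libraries. The log2 ratios of spok and sad to phm spanned 0.14 and 0.37 over the libraries, so these genes moved largely together and are not separate observations. The opposite pattern, all 4 mutant libraries above, held for 1 of 8, shd, and for 24.4% of all rows. The same 4 genes were below under median-ratio scaling. The untested dib joined them under quantile normalization and when each library was scaled to the same FPKM sum. The share of all rows below yw was not counted under these scalings. The median log2 change of all tested rows for the mean of both mutants was itself -0.15 under quantiles and -0.45 under the same FPKM sum.

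The mutants did not differ from each other detectably in these genes. The log2 difference of HP1b16 from HP1b86 was 0.19 for phm (95% interval -0.24 to 0.62) and 0.09 for shd (95% interval -0.33 to 0.51). For sro the interval ran from -1.44 to 1.58, so that a difference of more than 2-fold in either direction is within it.

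A ratio of 2 genes within a library does not change when the whole library is multiplied by a factor, and it shows which gland enzymes kept their proportion to phm. The log2 ratio of spok to phm stayed between 0.01 and 0.14 in all 6 libraries, a span of 0.14 against a counting standard error of 0.06 to 0.12 per ratio. The ratio of sad to phm ran from -0.34 to 0.04, and that of nvd to phm from -2.92 to -2.17. Of these 3 genes nvd varied most against phm, by 0.75 against counting standard errors of 0.10 to 0.21. The ratio of dib to phm spanned more, 1.94, from -5.44 to -3.50, with counting standard errors of 0.17 to 0.55.

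The ratio of shd to phm was higher in every mutant library than in yw, as shd lay above and phm below yw in all 4. It was 0.57 and 0.98 in the yw libraries and 1.91 to 2.15 in the 4 mutant libraries, so that the mean was 1.30 higher in the mutants on the log2 scale, a description with no test. The ratio of sro to phm ran from 1.55 to 3.69, with the HP1b86 libraries at 3.69 and 1.63. Thus sro and dib varied most against phm among the gland enzymes, in opposite directions in HP1b86 replicate 1. The summed level of the 6 prothoracic gland markers was 77.0 and 80.7 FPKM in yw, 79.0 and 77.2 in HP1b16, and 109 and 55.0 in HP1b86, with sro the largest part. The summed level without sro was 39.8 and 36.2 FPKM in yw and 21.6 to 29.8 in the mutants.

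**Figure D3:**
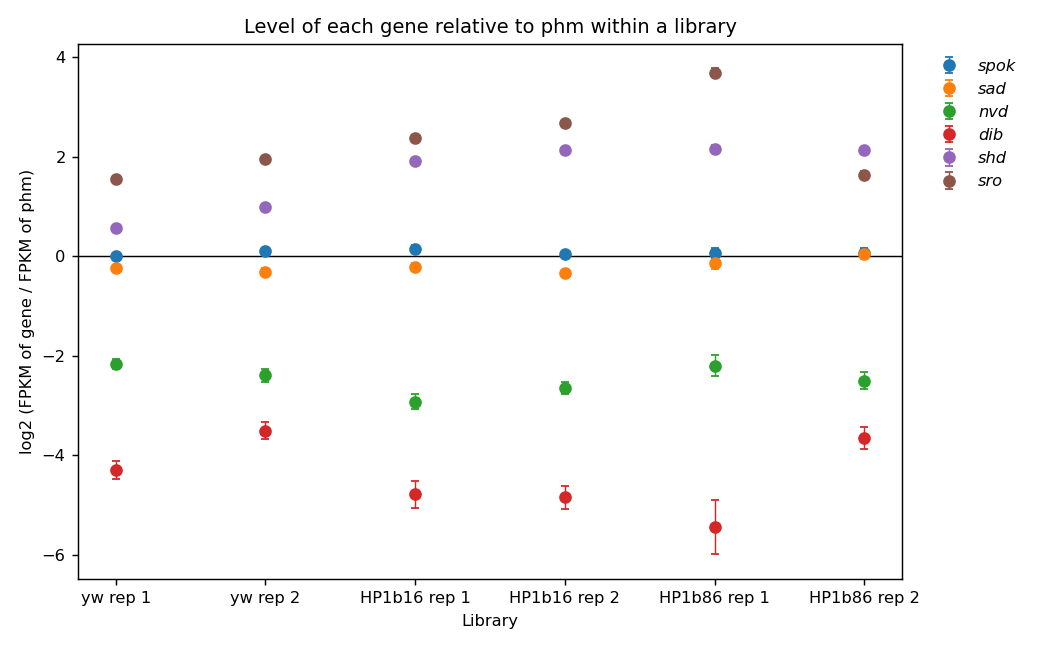
Log2 ratio of the FPKM of 6 genes to that of phm (vertical axis) in each of the 6 libraries (horizontal axis). Points are libraries and bars are counting standard errors; spok and sad stay near 0 throughout, shd is at 0.57 and 0.98 in yw and at 1.91 to 2.15 in the mutants, and sro differs most between the HP1b86 libraries.

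Other cells near the gland and in the brain gave further reference points. Akh, the adipokinetic hormone of the corpora cardiaca, was at 8.02 and 6.43 FPKM in yw, 6.89 and 5.47 in HP1b16, and 9.67 and 8.88 in HP1b86, and jhamt, the juvenile hormone enzyme of the corpus allatum, at 0.715 to 1.13 over all libraries. Of 8 ring gland and neurosecretory markers 6 were tested and 0 passed in limma. For the mean of both mutants 1 of 6 had an unadjusted p under 0.05, beside 31.1% of all tested rows. That one was Ilp5, an insulin-like peptide of the brain, at 2.73 and 3.14 FPKM in yw, 5.27 and 4.85 in HP1b16, and 7.73 and 5.45 in HP1b86 (log2 change 0.78, SE 0.17, limma adjusted p = 0.0645). Ilp3, also in this list, went in opposite directions in the mutants. It was at 3.57 and 3.04 FPKM in yw, 1.98 and 1.82 in HP1b16, and 5.91 and 5.64 in HP1b86. Its log2 change was -0.57 in HP1b16 (limma adjusted p = 0.121) and 0.66 in HP1b86 (limma adjusted p = 0.0728). The list had a median log2 change of 0.07, beside -0.08 over all rows. In HP1b86 6 of 6 were above yw with a median of 0.37, beside -0.005 over all rows. In HP1b16 3 of 6 were above with a median of -0.02, beside -0.10. The share of all rows above yw was not counted. The HP1b86 count stayed at 6 of 6 under median-ratio scaling and quantile normalization. With each library scaled to the same FPKM sum it was 2 of 6, with a median of -0.15 beside -0.53 over all rows.

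Genes that supply the enzymes with sterol and electrons did not pass either. Of 10 such genes 8 were tested and 0 passed in limma. For the mean of both mutants 4 of 8 had an unadjusted p under 0.05, 2 higher and 2 lower, beside 31.1% of all tested rows. The list median was -0.04, beside -0.08 over all tested rows. Npc2a, which moves sterol out of lysosomes, was at 204 and 173 FPKM in yw, 136 and 122 in HP1b16, and 176 and 156 in HP1b86 (log2 change -0.36, SE 0.13, limma adjusted p = 0.148). CG1319, a ferredoxin gene, was at 36.8 and 38.2 FPKM in yw, 52.4 and 71.7 in HP1b16, and 64.4 and 53.6 in HP1b86 (log2 change 0.66, SE 0.17, limma adjusted p = 0.0833). For CG1319 all 4 mutant libraries were above both yw libraries, whereas for Npc2a HP1b86 replicate 1 lay between them.

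Among 16 genes known to act on the gland, 12 were tested and 2 were lower for the mean of both mutants, where 6.38% of all rows passed in either direction, and the list median was -0.29. The first was br, a zinc-finger factor of the ecdysone response, at 188 and 233 FPKM in yw, 102 and 74.6 in HP1b16, and 41.6 and 63.7 in HP1b86. It fell by 1.63 on the log2 scale (SE 0.25, limma adjusted p = 0.0413). The insulin receptor gene InR was at 5.06 and 6.40 FPKM in yw, 3.60 and 2.98 in HP1b16, and 1.92 and 2.10 in HP1b86. It fell by 0.90 (SE 0.15, limma adjusted p = 0.0476). In HP1b86 against yw, both passed in the fit of all 6 libraries (limma adjusted p = 0.0476 for br and 0.0481 for InR) but not with HP1b86 and yw fitted on their own (limma adjusted p = 0.120 and 0.129). Under median-ratio scaling br passed for the mean of both mutants (limma adjusted p = 0.0454) and InR did not (limma adjusted p = 0.0617). These genes act in many tissues, and the values are of whole larvae.

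Of the 5 receptor and transport genes, all tested, 2 were lower and 1, a row shared with another gene, higher for the mean of both mutants, beside 6.38% of all rows in either direction. Their median was -0.46 on the log2 scale. The ABC transporter gene E23, itself induced by ecdysone, was at 45.6 and 36.4 FPKM in yw, 16.5 and 11.5 in HP1b16, and 13.9 and 13.6 in HP1b86. It fell by 1.50 (SE 0.19, limma adjusted p = 0.0359). The receptor coactivator gene tai was at 21.0 and 19.7 FPKM in yw, 13.4 and 12.6 in HP1b16, and 6.07 and 7.99 in HP1b86. It fell by 1.01 (SE 0.14, limma adjusted p = 0.0367), while EcR, the receptor itself, was at 31.2 and 53.7 FPKM in yw and 22.9 to 36.2 in the mutants (log2 change -0.46, SE 0.27, limma adjusted p = 0.337). The row of usp, the receptor's partner, was at 49.6 and 60.4 FPKM in yw and 84.7 to 145 in the mutants. It was higher by 1.05 (SE 0.17, limma adjusted p = 0.0448), but that row also holds Actn, the muscle actinin gene, and does not separate them. Under median-ratio scaling it did not pass (limma adjusted p = 0.0614). No row at all passed for the mean of both mutants without either yw library or either HP1b16 library, so every call in these lists is lost there.

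**Figure D4:**
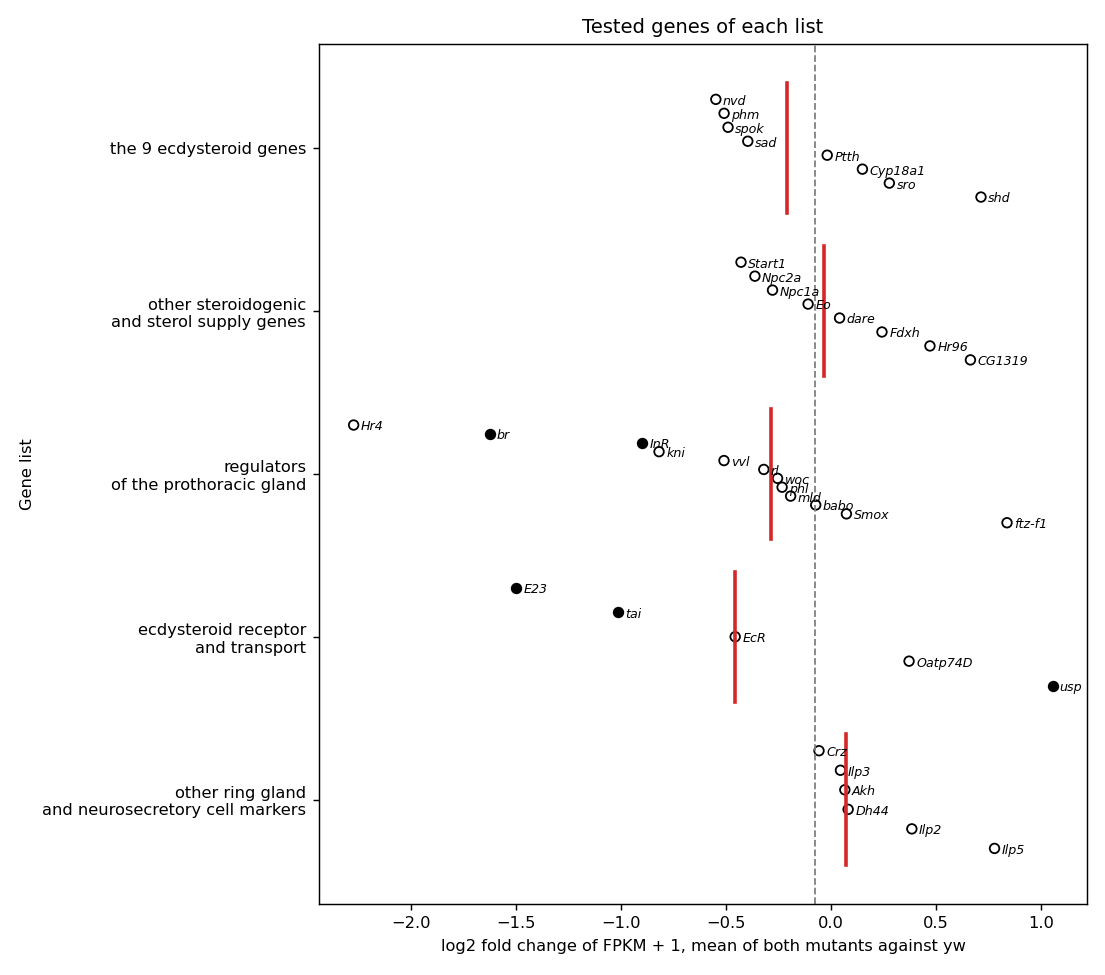
Log2 fold change of FPKM + 1 for the mean of both mutants against yw (horizontal axis) of the tested genes in 5 lists (vertical axis). Filled points passed an adjusted p of 0.05 in limma, red lines are list medians and the dashed line is the median of all tested rows; the 8 tested genes of ecdysteroid synthesis and turnover hold no filled point, while br, InR, E23, tai and the shared row of usp do.

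Some larval stage markers differed between genotypes as well. Of 21 markers of the last instar, 1 was higher and 4 were lower for the mean of both mutants, beside 6.38% of all rows in either direction. One of the lower calls, Lsp2, rests on values listed at 0. The median log2 change of the 21 markers was -0.94, beside -0.08 over all tested rows, with 14 below yw and 7 above. Fat body rows with values listed at 0 are among them. The summed salivary glue genes, which the salivary gland makes late in the last instar, stood at 73784 and 60659 FPKM in yw and at 19098 to 44876 in the mutants, though none of the 5 genes passed (limma adjusted p = 0.159 to 0.395). ImpE2, an ecdysone-inducible gene of imaginal discs, was at 488 and 352 FPKM in yw and 105 to 178 in the mutants, and fell by 1.67 (SE 0.27, limma adjusted p = 0.0455). ImpE1, another gene of that group, was at 30.3 and 22.5 FPKM in yw and 4.89 to 12.4 in the mutants, and fell by 1.65 (SE 0.27, limma adjusted p = 0.0448). The larval cuticle gene Lcp3 was at 1014 and 1894 FPKM in yw and 8899 to 20171 in the mutants, and rose by 3.15 (SE 0.47, limma adjusted p = 0.0410). Eip75B, the remaining lower call, was at 69.6 and 73.7 FPKM in yw and 20.1 to 38.6 in the mutants. It fell by 1.39 (SE 0.16, limma adjusted p = 0.0350). Under median-ratio scaling ImpE1 and ImpE2 no longer passed (limma adjusted p = 0.0553 and 0.0532), while Eip75B and Lcp3 did (limma adjusted p = 0.0409 and 0.0499). The larval serum gene Lsp2 was listed at 0 in both HP1b16 libraries and at 7602 to 16386 FPKM in the others, and the 4 larval fat body markers were all listed at 0 in HP1b16 replicate 2, values that can be failed estimates of very abundant transcripts. No label gives the hours of age of the larvae, and the part of stage in the levels of the 9 genes was not tested.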

How the data were processed

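Total RNA of whole larvae was extracted with Trizol. The deposited FPKM were made by the authors (tools from the submitters' processing notes) with bcl2fastq 2.18.0.12, Trim Galore 0.4.1, TopHat2 2.1.1 on the dm3 build and Cufflinks 2.2.1. The annotation, the use of strand and any scaling between libraries are not given in the sources used here. The study's own comparison used Cuffdiff, which needs alignments, so FPKM were tested on a log scale. Of the 16662 rows, 1604 were at 0 in every library and 626 hold several symbols.

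Values were taken as log2(FPKM + 1), rows averaging 1 FPKM or more were kept, and R 4.3.3 with limma 3.58.1 (trend on mean expression) fitted all 6 libraries together. The procedure was tested on simulated data. Whether the libraries of a genotype are separate larval collections is not given, so p-values measure the spread between libraries, which may be technical. Low FPKM fell on multiples of the value of 1 fragment (88.0% to 94.6% of low values of single-transcript genes lay within 0.1 of a whole number), which gave the implied fragments per gene. Lengths came from the BDGP6 annotation, and the divisor implied for a library was 24500000 to 74300000 fragments, which equals its depth only where no further scaling was applied and which, for some libraries, is above the reads per sample that the study's methods state. Intervals are 95% exact Poisson intervals and cover counting error only. Numbers for phm, shd, Cyp18a1 and Ptth, which have several transcripts, are approximate.

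The 9 genes and all lists were chosen with earlier results of these data known. Named beside them were list members past the threshold (up to 4 by size of change, otherwise the 2 most abundant). The 3 rows most like sro and Cyp18a1, and HP1b, were named too. EcR, spo, tor, jhamt, Ilp3 and Eip75B were named outside this rule. Alternatives were a pseudocount of 0.1, no filter, 3 scalings between libraries (median ratios, quantiles, and a common sum, as TPM), separate fits, a replicate block, and leaving out each library. Reference symbols and overlaps came from BDGP6, where phm is phtm; positions in it gave the overlaps and neighbours, and none are printed.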

Additional observations from a re-analysis of the deposited data

Results flagged for a closer look

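The log2 difference of HP1b16 from HP1b86 in Cyp18a1 was 0.68 (SE 0.63, limma adjusted p = 0.859). It stands out because both HP1b16 libraries, at 3.14 and 3.25 FPKM, were above the yw mean of 2.62 FPKM. Both HP1b86 libraries, at 1.79 and 1.46 FPKM, were below that mean. The yw libraries themselves were at 4.67 and 0.575 FPKM, so all 4 mutant libraries lay between them.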

How the results depend on the processing

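Of 455 fold changes of the 9 genes recomputed under the alternatives, 426 kept their direction and 29 reversed. Separate fits, the replicate block, no filter and leaving out a library of a genotype not compared return the same fold change. Their kept direction was fixed in advance and is part of the 426. Under scaling to a common FPKM sum, sro turned to -0.35 in HP1b86 and to -0.13 for the mutants averaged, Ptth to -0.26 in HP1b86, Cyp18a1 to -0.089 in the mean, and the difference of HP1b16 from HP1b86 to 0.31 in sad, 0.082 in nvd and 0.010 in Ptth. Quantile normalization turned sro to -0.15 in HP1b86 and -0.012 in the mean, and sad to 0.086 between the mutants. Median-ratio scaling turned Ptth to 0.018 in the mean and sad to 0.043 between the mutants. The median of all rows for the mean of both mutants was -0.45 under the common sum, -0.15 under quantiles and -0.01 under median ratios.

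Leaving out 1 library gave Cyp18a1 a range of -0.44 to 1.41 in HP1b16, -1.11 to 0.73 in HP1b86 and -0.78 to 1.07 in the mean. For Ptth the ranges were -0.24 to 0.056, -0.34 to 0.45 and -0.22 to 0.18, and -0.54 to 0.24 between the mutants. For sro they were -0.60 to 1.08 in HP1b86, -0.14 to 0.70 in the mean and -0.77 to 0.92 between the mutants. Between the mutants dib ranged from -0.35 to 0.19, sad from -0.23 to 0.22 and shd from -0.063 to 0.24.

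The count of the 8 tested genes past the threshold was 1 (shd) in HP1b16 with its own comparison fitted alone and 2 (phm, spok) in HP1b86 under the common sum, where 18.9% of all rows passed. Leaving out libraries gave 0 to 1 in HP1b16 (shd, without either HP1b86 library), 0 to 3 in HP1b86 (phm, spok and sro, without HP1b86 replicate 2), 0 to 6 in the mean (phm, sad, shd, spok, nvd and sro, without HP1b86 replicate 2, where 46% of all rows passed) and 0 to 1 between the mutants (sro, without HP1b86 replicate 1). In the fit of every row above 0, dib without HP1b86 replicate 2 was at -0.66 in HP1b86 and -0.56 in the mean. The cause of these shifts was not tested. Over all rows, leaving out libraries gave 0 to 2381, 0 to 4680, 0 to 5052 and 0 to 2013 calls in the 4 comparisons, against 2, 443, 701 and 1. The other alternatives gave 0 to 2382 in HP1b16 (most with its own libraries alone, fewest under the replicate block), 0 to 2071 in HP1b86 (most under the common sum) and 0 to 1291 in the mean (most under quantiles).

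With the replicate number as a block, 0 of the tested genes and 0 rows passed in any comparison. Same-numbered deviations correlated at -0.12, 0.07 and -0.40 between genotypes, so the replicate block rests on a shared number only.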
